A study of Capra hircus with 12 samples.

Results

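Among the 20486 genes listed for embryonic cashmere goat skin, 251 genes (1.23%) were high in a pair of E45 embryos, E45-2 and E45-3, and low in the 7 other embryos. They were chosen from the expression values themselves. A gene belonged to the group when E45-2 and E45-3 both had at least 1 RPKM (reads per kilobase of gene, scaled to the size of the library) and both were at least 4 times the largest value of the other 7 embryos. The high values in E45-2 and E45-3 and the low values elsewhere therefore follow from the choice and are described without a test. The libraries came from mid flank skin of 3 embryos each at E45, E55 and E65 (embryonic day), all Inner Mongolia cashmere goats chosen so as not to be related, with no treatment named and 1 library per embryo. Polyadenylated RNA of each embryo was sequenced separately. The RPKM values of a library summed to between 537791 and 602169, and between 17572 and 18389 genes were above 0. The read numbers behind single RPKM values are not known, so no counting interval is given.

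Embryonic skin is a mixed tissue. Its epidermis arises from the ectoderm and its dermis from mesenchyme, while sensory nerves, glia and pigment cell precursors enter from the neural crest and blood vessels grow through the dermis. Primary hair follicles start as epidermal placodes above condensing dermal cells, within the period that these stages span. RNA from a whole piece of skin is a sum over all these cells, so fewer cells of a type and less RNA per cell cannot be told apart in these libraries. The identifiers of the file were looked up in 1 table, the goat genes of RefSeq (assembly ARS1.2), where 0 of 20486 matched. Gene symbols were therefore not used here, markers of skin or of any other tissue were not read, and the genes are described by level, position and ratio. Which cells the RNA of the 251 genes came from was not tested.

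E45-1 was not like the other embryos of its stage in these genes. The median over the 251 genes was 4.1 RPKM in E45-2 and 5.74 RPKM in E45-3, but 0.34 RPKM in E45-1. At E55 the medians were 0.18, 0.21 and 0.22 RPKM in E55-1, E55-2 and E55-3. At E65 they were 0.17, 0.15 and 0.15 RPKM in E65-1, E65-2 and E65-3. The group is thus one of 2 embryos rather than of a stage, as the rule asked, and E45-1 lay beside the E55 and E65 embryos. Summed over the 251 genes, RPKM made up 0.593% of the library in E45-2 and 0.958% in E45-3. In E45-1 this share was 0.0539%. The E55 embryos ranged from 0.0270% to 0.0339% and the E65 embryos from 0.0251% to 0.0293%.

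**Figure D1:**
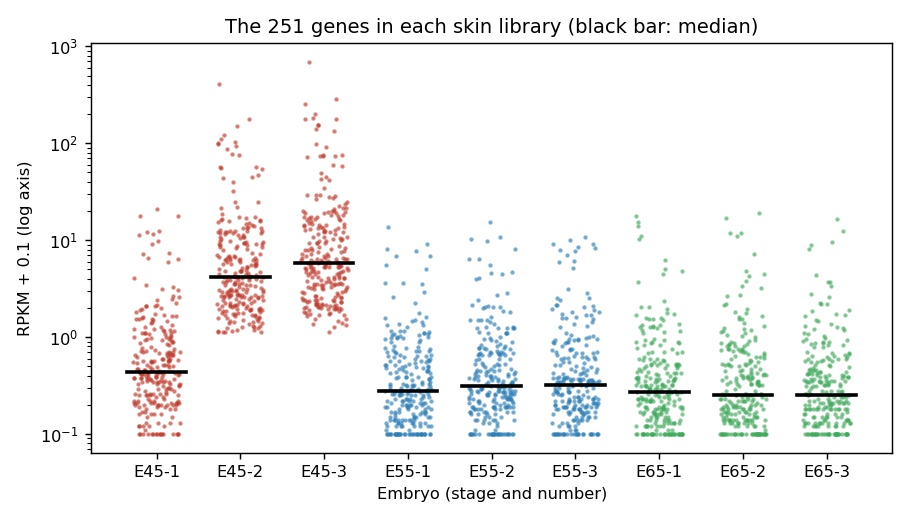
RPKM + 0.1 (log axis) of the 251 genes in each of the 9 libraries, 1 point per gene, with the median as a black bar. The points of E45-2 and E45-3 start at 1.02 and 1.03 RPKM, while the medians of the 7 other libraries lie between 0.15 and 0.34 RPKM.

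The genes were low outside E45-2 and E45-3, but in each of those libraries most of them were above 0. Of the 251 genes, 165 (65.7%) were above 0 in all 9 libraries, and only 1 was at 0 in all 7 others. A further limit shows the scale of these values: 179 genes (71.3%) stayed under 1 RPKM in all 7 others, and 14 stayed under 0.1 RPKM. Relative to the mean of E45-2 and E45-3, the median gene stood at 7.23% in E45-1, at 3.75% to 4.76% in the E55 embryos and at 2.83% to 3.37% in the E65 embryos. The number of genes listed at 0 was 16 in E45-1, 27 to 34 in the E55 embryos and 36 to 39 in the E65 embryos.

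Within the 7 low libraries, E45-1 was most often the highest. It held the largest value of the 7 for 110 genes (43.8%), against 36 genes for E55-2 and 18 to 22 genes for each of the other 5. In 6 genes the largest value was tied. How often E45-1 was the highest of these libraries over all listed genes was not counted, so these counts have no background to be set against. E45-1 was above the mean of the 6 E55 and E65 embryos in 182 genes (72.5%) and below all 6 in 9. Most of the genes thus had a higher level in E45-1 than the later embryos had on average. The rule capped the values of E45-1 as well, and the same share over all listed genes was not computed. Whether the higher level in E45-1 is particular to these genes was therefore not tested.

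The level of the 251 genes covered a wide range. RPKM ran from 1.02 to 409.8 in E45-2 and from 1.03 to 690.97 in E45-3. Both values were at least 5 RPKM in 104 genes, at least 10 RPKM in 59 and at least 100 RPKM in 6. The group was made of genes of middle and low abundance with a short list of abundant ones. In E45-2 the genes had a median abundance rank of 10583 among all listed genes (rank 1 is the most abundant), and in E45-3 of 9222. In the other 7 libraries the median rank lay between 14618 and 15254. Of the 251 genes, 25 (9.96%) were among the 5000 most abundant genes of E45-2 and 49 (19.5%) among those of E45-3, where 24.4% of all listed genes fall. The 10000 most abundant genes held 109 (43.4%) in E45-2 and 153 (61.0%) in E45-3, against 48.8% of all listed genes. The rule left out genes under 1 RPKM in either library, and only 12968 of the 20486 listed genes passed that limit. The shares among those genes were not computed and would be larger, so the shares of all listed genes are not a like background. In E45-2, 8 of the 251 genes were among the 1000 most abundant, and in E45-3 there were 12. None of the 7 other libraries had any of them there.

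**Figure D2:**
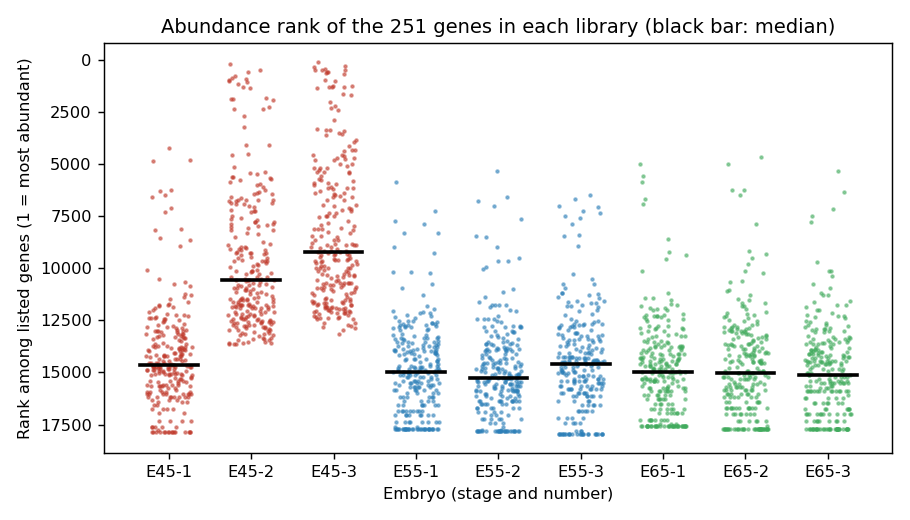
Abundance rank of the 251 genes in each library (1 is the most abundant gene, plotted at the top), 1 point per gene, with the median as a black bar. The ranks reach 191 in E45-2 and 100 in E45-3, whereas the best rank in the 7 other libraries is 4215, in E45-1.

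A few genes carried much of the summed level. The 10 genes with the highest mean of E45-2 and E45-3 made up 42.9% of the summed RPKM of the group in E45-2 and 46.2% in E45-3. They lay on 8 chromosomes, with 3 of them on chromosome 8. Their values ran from 75.09 to 409.8 RPKM in E45-2 and from 140.48 to 690.97 RPKM in E45-3, and no other library reached more than 20.92 RPKM in any of them. All 10 were higher in E45-3 than in E45-2, by 1.38 to 2.05 times.

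The most abundant gene was GOAT_ENSBTAP00000026776_gene on chromosome 14. It had 409.8 RPKM in E45-2 and 690.97 RPKM in E45-3, which placed it at ranks 191 and 100 of these libraries. E45-1 had 20.92 RPKM of it. At E55 it had 7.62, 15.2 and 8.25 RPKM and at E65 15.14, 11.77 and 8.75 RPKM in embryos 1, 2 and 3. It was therefore not silent in the other embryos: E55 and E65 overlapped, and the lower of the high values was 19.6 times the largest of the 7 others. Its log2 fold change in E65 vs. E55 was 0.23 (adjusted p = 0.924 from limma), and under the other settings of that fit it ran from 0.0422 to 0.543. The error of the fit includes the E45 split that chose the genes, and without E45-1 the adjusted p from limma was 0.669.

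E45-3 was the higher of the 2 libraries in most of the group. The ratio of E45-3 to E45-2 was above 1 in 226 of the 251 genes and below 1 in 25. Its median was 1.52, or 0.60 on the log2 scale, where the quartiles were 0.32 and 0.83. The ratio of the summed RPKM was 1.58. Other expressed genes went slightly the other way. Among the 12717 other genes with at least 1 RPKM in both libraries, the median ratio was 0.928, and 36.0% were higher in E45-3. Between the medians of the 251 genes and of the others the difference was 0.71 on the log2 scale, a factor of 1.64. Both libraries were part of the rule, and genes of 1 pair of libraries are not replicates, so this ratio describes these libraries and no p is given.

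**Figure D3:**
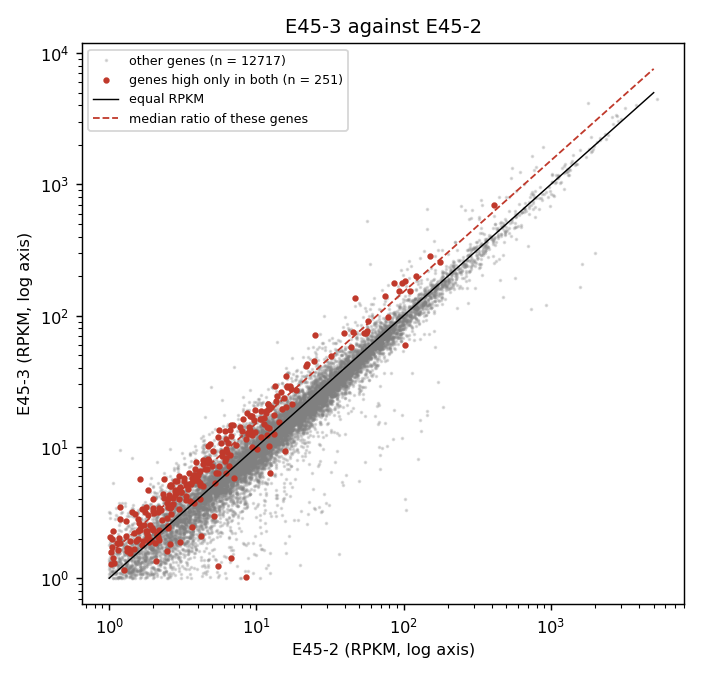
RPKM in E45-3 against E45-2 (both axes log) for genes with at least 1 RPKM in both, 1 point per gene, with the 251 genes in red and the 12717 others in grey. Of the red points, 226 lie above the line of equal values (solid) and 25 below it. The dashed line marks their median ratio of 1.52.

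The spread of the ratio over the 251 genes was set beside that over other genes. On the log2 scale its SD was 0.544 and its interquartile range 0.512, against 0.493 and 0.415 in the 12717 others. Of the 251 genes, 215 (85.7%) lay within 1.5 times of the median ratio of the group, and 85.4% of the other genes lay as near to theirs. Levels were set by the geometric mean of both libraries, each taken around its own median. Within them the shares inside 1.5 times were 81.4% against 72.4% at 1 to 4 RPKM, 89.8% against 84.3% at 4 to 16 RPKM and 92.5% against 91.9% from 16 RPKM on. The interquartile range was 0.560 against 0.677 at 1 to 4 RPKM, 0.431 against 0.454 at 4 to 16 RPKM and 0.367 against 0.322 from 16 RPKM on, so which of them was wider differed by level. The slope of log2 E45-3 on log2 E45-2 was 1.01 over the 251 genes, with Pearson's r of 0.951 and Spearman's rho of 0.921 across genes, which share both libraries. Over all 12968 genes with at least 1 RPKM in both, the 251 included, the slope was 0.981, r 0.967 and rho 0.964.

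The ratio differed by level. In genes with a geometric mean of both libraries of 1 to 4 RPKM (113 genes), the median log2 ratio was 0.52 and the SD 0.673. It was 0.63 with an SD of 0.388 at 4 to 16 RPKM (98 genes), and 0.75 with an SD of 0.373 from 16 RPKM on (40 genes). The other genes had SDs of 0.628, 0.508 and 0.403 at these levels. The spread thus narrowed with level in both, while the median ratio of the 251 genes was larger at higher levels. The distance between their median and that of the other genes was 0.67, 0.74 and 0.85 in the same order. Among the 10 most abundant genes the log2 ratio had a median of 0.79 and an SD of 0.174.

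**Figure D4:**
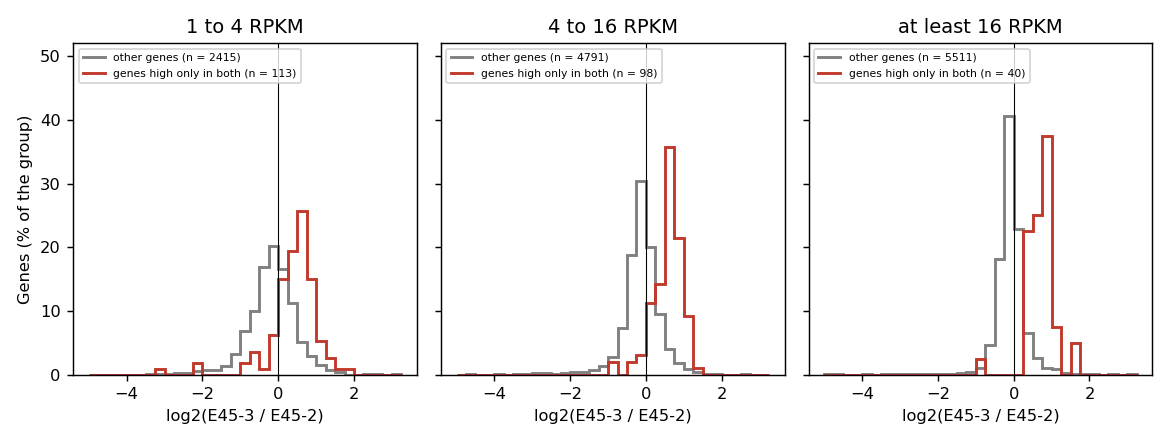
Distribution of log2(E45-3 / E45-2) in the 251 genes (red) and in other genes (grey), as a percent of each, at 3 levels of the geometric mean of both libraries. The red distribution lies to the right of the grey one at each level, with medians of 0.52, 0.63 and 0.75.

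The ratio was also computed after subtracting the level of the other embryos, which the rule keeps to the lower high value divided by 4, or less, so that a large change was not possible for most genes. With the mean of the 7 other libraries subtracted from both values of each gene, the median log2 ratio was 0.64 and its SD 0.567. With E45-1 subtracted instead, they were 0.65 and 0.588. Genes with a mean under 0.1 RPKM in the 7 others (66 genes) had a median log2 ratio of 0.66, those with 0.1 to 1 RPKM (148 genes) 0.58, and those with at least 1 RPKM (37 genes) 0.64.

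Most genes sat in the middle of the ratio range and a few did not. The log2 ratio was 0.5 to 1 in 127 genes, 0 to 0.5 in 73 and at least 1 in 26. It was from -0.5 to 0 in 13 genes and below -0.5 in 12. The gene that was most in favour of E45-3 was GOAT_ENSBTAP00000035418_gene on chromosome 12, with 1.63 RPKM in E45-2 and 5.74 RPKM in E45-3, a ratio of 3.52. It had 0.1 RPKM in E45-1, 0, 0.11 and 0 RPKM at E55, and 0, 0.18 and 0.08 RPKM at E65. The gene was thus at or near 0 in every embryo outside the pair.

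The 25 genes that were lower in E45-3 lay on 13 chromosomes and had a median of 3.35 RPKM over both libraries, against 5.04 RPKM in the 226 others. Only 4 of them had a mean of at least 10 RPKM. The most abundant was GOAT_ENSBTAP00000015645_gene on chromosome 13, which had 101.77 RPKM in E45-2 and 59.72 RPKM in E45-3, a ratio of 0.587. It was at 0.97 RPKM in E45-1, at 0.16, 0.43 and 0.93 RPKM at E55 and at 0.25, 0.19 and 0.14 RPKM at E65. This gene was thus 61.6 times higher in E45-3 than in the next embryo, and still ran against the direction of the group between E45-2 and E45-3.

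At the low end 3 genes stood apart from the rest, with log2 ratios of -3.03, -2.23 and -2.15. The first, GOAT_ENSP00000362690_gene on chromosome 11, had 8.44 RPKM in E45-2 and 1.03 RPKM in E45-3. In E45-1 it had 0.23 RPKM, at E55 0, 0.24 and 0.02 RPKM, and at E65 0.21, 0.02 and 0 RPKM. The other two, on chromosomes 5 and 13, had 6.69 and 5.46 RPKM in E45-2 and 1.43 and 1.23 RPKM in E45-3. All 3 had E45-3 values close to the limit of 1 RPKM. Without these 3 genes, an alternative chosen after seeing the data, the SD of the log2 ratio was 0.434 in place of 0.544, and the median was 0.61.

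The genes came from every chromosome that the file lists, 29 autosomes and X. The file gives a chromosome for each gene but no start or end, so whether any of them neighbour each other was not analysed here. Chromosomes 4 and 7 held 17 genes each and chromosome 5 held 16, which together make 19.9% of the group. As a share of the genes with at least 1 RPKM in both libraries, the group was 1.94% in all and ran from 0.565% (2 of 354 genes) on chromosome 23 to 3.97% (17 of 428) on chromosome 4. Chromosome 26 followed with 3.61% (9 of 249) and chromosome 13 with 3.21% (15 of 468). With 17 genes or fewer on a chromosome these shares are coarse, and no chromosome dominated the group.

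The excess of E45-3 over E45-2 was spread over the chromosomes as well. In each of the 23 chromosomes with at least 5 of the genes the median log2 ratio was above 0, and it ran from 0.23 on X (8 genes) to 0.96 on chromosome 29 (6 genes). The medians of the other genes ran from -0.14 to -0.0648 over all chromosomes. Chromosome 8, which held 3 of the 10 most abundant genes, had 8 genes with log2 ratios between 0.41 and 1.03 and a median of 0.86, at levels from 4.36 to 150.22 RPKM in E45-2. Chromosomes 5, 11 and 13 had the widest ranges, since each held 1 of the 3 lowest genes.

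**Figure D5:**
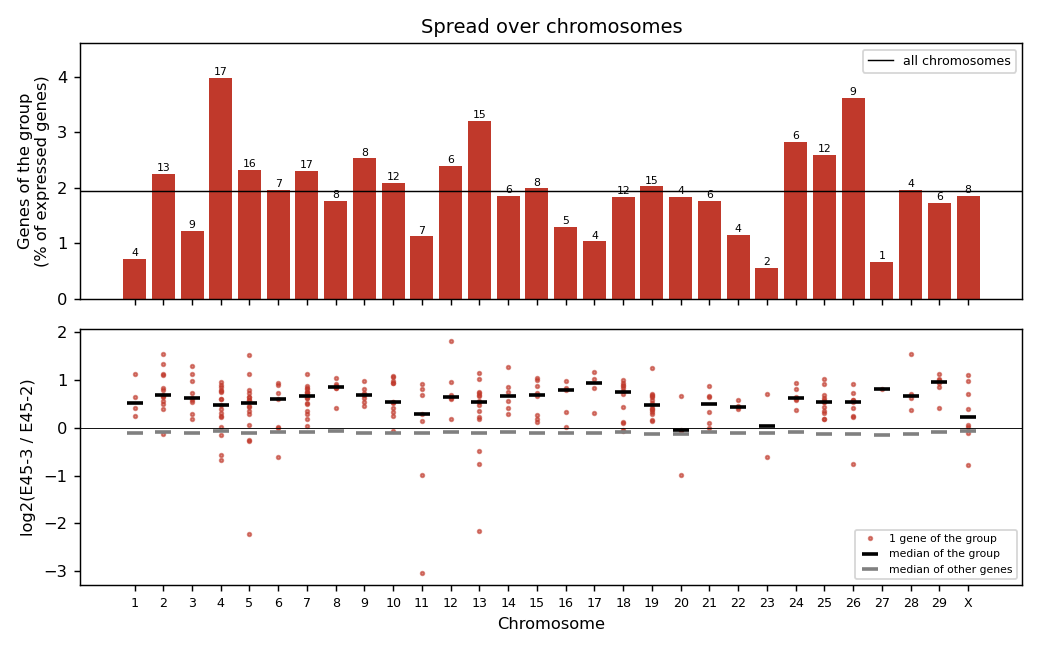
Upper panel: genes of the group as a percent of the genes with at least 1 RPKM in both E45-2 and E45-3, by chromosome, with the number of genes above each bar and the share over all chromosomes (1.94%) as a line. Lower panel: log2(E45-3 / E45-2) of each gene (red), with the median of the group (black) and of other genes (grey); all grey medians lie below 0 and all black ones but that of chromosome 20 above it.

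The file names genes by 3 kinds of identifier, and all occurred in the group. The group held 108 genes (43.0%) with ENSBTAP identifiers, 112 (44.6%) with ENSP and 31 (12.4%) with GLEAN identifiers. Among the genes with at least 1 RPKM in both libraries these shares were 45.7%, 45.8% and 8.48%. The median log2 ratio was 0.63, 0.59 and 0.59 in the same order, so it hardly moved with the kind of identifier. A suffix that marks a further copy was carried by 2 of the 251 genes (0.797%), against 1.90% of the genes with at least 1 RPKM in both libraries. No pair shared an identifier apart from such a suffix.

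The group was part of a larger set that separated E45-2 and E45-3 from E45-1. In 402 genes with at least 1 RPKM in both, E45-2 and E45-3 were at least 4 times E45-1, and 251 of these (62.4%) were also at least 4 times every E55 and E65 embryo. The 151 that were not had medians of 4.42 RPKM in E45-2, 5.6 RPKM in E45-3 and 0.57 RPKM in E45-1, but 0.89 to 1.08 RPKM in the E55 embryos and 1.32 to 1.38 RPKM in the E65 embryos. Their median log2 ratio of E45-3 to E45-2 was 0.40, with an interquartile range of 0.658, and 113 of the 151 were higher in E45-3. At 1 to 4 RPKM the 66 genes of this set had a median of 0.12, and 37 of them (56.1%) were higher in E45-3. At 4 to 16 RPKM the 63 genes had a median of 0.41, and from 16 RPKM on the 22 genes had one of 0.56. The excess in E45-3 was thus small in the low genes of this set, which shares both libraries and the rule on E45-1 with the group.

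The limit of 4 times fell inside a continuous range. The lowest members stood at 4, 4.03 and 4.05 times the largest other value, and the nearest genes outside at 3.98, 3.96 and 3.94 times. Just inside, a gene had 1.44 RPKM in E45-2 and 3.2 RPKM in E45-3 against 0.36 RPKM in E55-2. Just outside, another had 3.54 and 6.17 RPKM against 0.89 RPKM in E55-2. Over the genes with a value above 0 elsewhere the median was 7.78 times, 56 genes lay between 4 and 5 times, and 92 reached at least 10 times or had no value above 0 in the others. Without E45-1 in the rule, 330 genes would have qualified, and leaving out any single E55 or E65 embryo gave 256 to 259.

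In the fits of the stages, limma was run on log2(RPKM + 0.1) for the 16604 genes with a mean of at least 0.1 RPKM, with all 9 embryos in one fit. All 251 genes passed this filter, as the high values of E45-2 and E45-3 alone carry a gene past it. A gene was called at an adjusted p under 0.05 (Benjamini-Hochberg over all genes tested) and an absolute log2 fold change of 1 or more. The comparisons with E45 use the values that chose the genes, so their counts are given beside the share over all genes and nothing is read from them. In E55 vs. E45, 5 of the 251 genes (1.99%) were called lower at E55, where 0.494% of all genes tested were. In E65 vs. E45, 147 (58.6%) were called lower at E65, where 9.21% of all genes were, and none higher, where 4.9% of all genes were. The medians of the log2 fold changes were -2.72 and -2.89, against -0.12 and -0.0668 over all genes.

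The fitted error of these genes was larger than that of most genes. Their median standard error was 0.845 on the log2 scale, against 0.250 over all genes. The rule put E45-2 and E45-3 at least 4 times above E45-1, and the fitted error includes that gap. A larger error in these genes thus follows from the choice and is not read as a finding. The E55 vs. E45 count was 249 without E45-1 (1215 calls over all genes tested), 5 without E55-2 (261 calls), 1 without E65-2 (54 calls) and 0 without any one of the other 6 embryos, where all genes together gave 0 to 75 calls, against 148 with all embryos. The loss of calls was thus general in those 6 fits. The E65 vs. E45 count was 251 without E45-1 (2496 calls over all genes), 49 without E45-2 (1787), 53 without E45-3 (1810), 56 without E65-1 (1619), 53 without E65-2 (1482) and 55 without E65-3 (1705), against 2343 calls over all genes with all embryos. Leaving out E45-1 leaves only the embryos that chose the genes at E45.

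E65 vs. E55 was the only comparison in which the rule held both sides down alike. None of the 251 genes was called in limma, where 5.18% of all genes tested were (2.11% higher and 3.07% lower at E65), and 5 had an unadjusted p under 0.05, all of them lower at E65, where 24.7% of all genes had one and 11.4% had one with a lower level. The smallest adjusted p was 0.0651. The median log2 fold change was -0.16, against 0.06 over all genes, and 159 of the 251 genes (63.3%) had a value below 0, against 43.9% of all genes. The 3 E55 embryos were all above the 3 E65 embryos in 35 genes (13.9%), where 14.6% of all genes tested were, and all below them in 18 (7.17%), where 19.8% were. The high values of E45-2 and E45-3 were enough to carry each of these genes past the filter, whatever its other values. The error of the fit includes the E45 split that chose them. The low counts of calls and of unadjusted p under 0.05 are therefore not read against the shares over all genes. Leaving out E45-1 cannot change the fold changes in this comparison, as each stage has its own mean in the fit. The median standard error without E45-1 was 0.391 in place of 0.845. The count of calls was then 12 genes (4.78%), 11 of them lower at E65, against 6.36% of all genes tested. It was 1 without E45-3, with 758 calls over all genes against 860. In a fit of the E55 and E65 embryos alone, which was added after seeing the data, 5 genes (1.99%) were called, 4 of them lower at E65, against 4.28% of all genes tested. Of the named genes, GOAT_ENSBTAP00000035418_gene had a log2 fold change of 0.42 in E65 vs. E55 (limma, adjusted p = 0.844), GOAT_ENSBTAP00000015645_gene of -0.85 (adjusted p = 0.759) and GOAT_ENSP00000362690_gene of -0.0444 (adjusted p = 0.987). Without E45-1 their adjusted p from limma was 0.687, 0.289 and 0.981 in the same order. The log2 fold changes moved with single embryos and with the pseudocount. For GOAT_ENSBTAP00000035418_gene it ran from 0.0672 without E65-2 to 0.81 without E65-1, and was 0.0664 with a pseudocount of 1 and 1.28 with one of 0.01. For GOAT_ENSBTAP00000015645_gene leaving out E55-1 gave -1.35 and leaving out E55-3 gave -0.36, and it was -0.31 with a pseudocount of 1. For GOAT_ENSP00000362690_gene it ran from -0.54 without E65-1 to 0.50 without E55-2.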

How the data were processed

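RNA-seq values of 9 goat embryo skin samples were used. Quality filtering by the authors used FASTX-Toolkit (version 0.0.13) and alignment used TopHat (TopHat2 in the submitters' processing notes), with reads of more than 1 location dropped. The deposited unit is RPKM, with 2 decimals (the methods write FPKM). The genome build is not given in the sources used here. RPKM depends on the other genes of a library, so 1 very abundant gene lowers the rest. The 3 small RNA pools were not used here. Python 3.11.15, numpy 2.4.6, pandas 2.3.3, matplotlib 3.10.9, R 4.3.3 and limma 3.58.1 were used, and the limma fit (stage as factor, mean-variance trend) was tested on simulated data. The genes, the rule that chose them and the tests were chosen with earlier results of these data known. As no identifier matched the 1 table searched, 4 genes are named by rule: the most abundant gene and the one of most extreme ratio, among those higher and those lower in E45-3. Alternatives were other pseudocounts, filters, scalings, error models, rule limits, a replicate block, and each embryo left out in turn. Embryos of a stage were the replicates. A p-value sets the difference between 2 stages against an error pooled over all stages in the fit. In the main fit that error includes the E45 split that chose the genes. Their median standard error was 0.845 there and 0.366 in the fit of E55 and E65 embryos only. The p-values of E65 vs. E55 in the main fit thus do not reflect the spread within E55 and E65 alone.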

Additional observations from a re-analysis of the deposited data

How the results depend on the processing

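The number of genes became 125 at 8 times, 104 with a minimum of 5 RPKM and 166 after quantile normalization, and it ran from 256 to 330 with 1 of the 7 low embryos left out. Limits of 8 times and 5 RPKM are stricter by construction, and the cause of the change with quantile normalization was not tested. The median log2 ratio of E45-3 to E45-2 ran from 0.54 to 0.86 over all settings, and its SD from 0.397 to 0.659. With 1 embryo left out they ran from 0.54 to 0.61 and from 0.54 to 0.58. Median scaling gave 0.73 and quantile normalization 0.86, so the direction of the ratio was the same under each scaling tried.

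Calls over all genes tested follow each count in brackets. In E55 vs. E45 the 5 calls (148) became 1 (137) with pseudocount 1, 2 (132) with the filter raised to a mean of 1 RPKM, where 152 of the genes were tested, 3 (103) without trend and 8 (98) with the replicate block, and with 1 embryo left out 0 to 249 (0 to 1215). In E65 vs. E45 the 147 calls (2343) became 97 (1600) with pseudocount 1 and 87 (1827) with that filter, and ran from 49 to 251 (1482 to 2496) with 1 embryo left out. In E65 vs. E55 the 0 calls (860) became 1 (837) with pseudocount 0.01, 2 (907) with the replicate block and 5 (711) with E55 and E65 samples only, and ran from 0 to 12 (220 to 1088) with 1 embryo left out. Fewer genes are tested with the stricter filter. Leaving out E45-1 cannot change a fold change in E65 vs. E55, as each stage has its own mean. The median standard error fell to 0.391 from 0.845. The cause of the other changes was not tested. Residuals of same-numbered samples correlated from -0.30 to 0.41 over 9 pairs. Differently numbered samples were not set beside them, so whether the replicate numbers pair embryos was not settled. The log2 fold change of GOAT_ENSP00000362690_gene in E65 vs. E55, -0.0444 and not called, became 0.12 with quantile normalization, 0.50 with E55-2 left out, 0.14 with E65-2 left out and 0.27 with E65-3 left out, and ran from -0.54 to 0.50 with 1 embryo left out.

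The depth behind single genes is unknown. The SD of the log2 ratio was larger at 1 to 4 RPKM than above.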
